A study of Mus musculus with 3 samples.

Results

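The genes described here encode subunits of the mitochondrial respiratory chain and of the ATP synthase, measured in otic placodal ectoderm of mouse embryos that lacked both Fgf3 and Fgf10. They were chosen by name alone, as array probes whose gene name starts with Nduf, Uqcr, Atp5 or with Cox4, Cox5, Cox6, Cox7 or Cox8. The array carried 78 such genes on 107 probes, among 27962 gene names on 41174 probes. A probe was used when it was well above background in at least 1 colour channel on all 3 arrays, which left 74 of these genes on 100 probes, out of 16988 gene names on 25514 probes. For each of the 100, Cy3 and Cy5 both cleared background on every array, and none was saturated.

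The respiratory chain passes electrons from NADH through complex I, complex III and complex IV to oxygen and pumps protons across the inner mitochondrial membrane. The ATP synthase, often called complex V, lets the protons back in and makes ATP. Complex I has a catalytic core (here Ndufv1, Ndufv2 and most Ndufs genes) surrounded by accessory subunits (Ndufa, Ndufb and Ndufc genes and Ndufs4, Ndufs5 and Ndufs6), and the subunits measured here are all encoded by nuclear genes and imported into mitochondria. Several subunits of complex IV come in a general and a heart and skeletal muscle form, made from separate genes.

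Both groups were microdissected otic placodal ectoderm of embryos with 4 to 8 somites. The control was the double heterozygote, Fgf3+/-;Fgf10+/-, which carries 1 null allele of each gene, and the other group was the double null, Fgf3-/-;Fgf10-/-. Each of the 3 arrays held 1 pool of 10 double heterozygote placodes labelled with Cy3 and 1 pool of 10 double null placodes labelled with Cy5. Because the dyes were never exchanged, genotype and dye cannot be told apart for any single probe. A ratio below is the double null over the double heterozygote on the log2 scale, after background correction and a smooth normalization against brightness (loess), with the moderated standard error of limma over n = 3 arrays and a p-value adjusted over all 25508 probes tested.

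Before normalization the Cy5 signal of the members exceeded the Cy3 signal on every array, with median log2 ratios of background-subtracted signals of 1.70, 1.55 and 1.49. No such value was taken over all probes, so the excess is not shown to be particular to the members. The single Fgf3 probe had ratios of -0.69, -0.06 and -0.69 (limma adjusted p = 0.121), and the Fgf10 probe had 0.31, -0.11 and 0.23 (limma adjusted p = 0.385). Of the 8 otic and preplacodal marker genes on the array, 7 passed the filter and Pax2 did not. All 11 probes of these 7 genes had a mean ratio below 0, and 1 of them passed the limma test. Their summed intensity lay between 28700 and 30000 in the double heterozygote and between 23900 and 24900 in the double null. Each sum was computed from the mean brightness of a probe over all arrays and its ratio on each array. The ranges therefore restate the ratios and are not a separate measurement of level, and differences in brightness between arrays are not in them. In pooled tissue, fewer cells of a type and less RNA per cell cannot be told apart.

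The probes on which the results turn are shown first, as the array's 60-base sequences read 5′ to 3′, because several of these genes were measured by more than 1 probe and the probes gave different values. Positions are those in the files, on build mm7, for which no gene annotation was used here. The 3 probes of Atp5b, which encodes the catalytic beta subunit of the ATP synthase, lie on the plus strand of chromosome 10. The first, at chr10:127585810-127586488, is spread over 679 bases of the genome, the second is at chr10:127586901-127586960, and the third, at chr10:127591587-127591646, is the one that passed the test. Only its first 30 bases are shown.
Atp5b, first probe: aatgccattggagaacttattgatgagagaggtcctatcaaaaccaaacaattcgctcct
Atp5b, second probe: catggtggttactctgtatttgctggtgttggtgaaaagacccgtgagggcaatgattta
Atp5b, the third probe, first 30 bases: acaagagccttgattgaagatgtgatgttc

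Atp5f1, called Atp5pb in RefSeq, encodes the b subunit of the stalk that holds the ATP synthase together. Its 3 probes lie on the minus strand, at chr3:105761241-105761300, chr3:105772410-105774244 (spread over 1835 bases) and chr3:105777016-105777075. The last was designed on a cDNA clone, lies 2771 bases upstream of the probe before it in the direction of transcription, and is the one that passed the test. Neither it nor the middle probe had a RefSeq match. The first 30 bases of each are shown, and no stretch longer than 7 bases is shared between the full probes.
Atp5f1, probe nearest the 3′ end: aaggctcaagctcagccaattatgtgaata
Atp5f1, middle probe: cgtcttgggctgattcctgaggacttagct
Atp5f1, upstream probe: gccagcttgcatactcattcggacgtttgt

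Other sets show probes of 1 gene that overlap in part. Capitals mark the longest stretch that a probe shares with another probe of its gene. The Atp5h probes, at chr11:115524825-115524884 and chr11:115524865-115524924 on the minus strand, share 20 bases. Atp5h encodes the d subunit of the ATP synthase stalk.
Atp5h, probe that passed: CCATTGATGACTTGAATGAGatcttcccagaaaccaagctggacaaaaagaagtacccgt
Atp5h, other probe: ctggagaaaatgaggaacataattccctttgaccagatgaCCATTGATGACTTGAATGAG
The 3 probes of Ndufs6, a zinc-binding accessory subunit of complex I, lie within chr13:70251833-70258918 on the minus strand. Each shares a stretch of 39 or 54 bases with another of them, so that they are not independent measurements.
Ndufs6, first probe: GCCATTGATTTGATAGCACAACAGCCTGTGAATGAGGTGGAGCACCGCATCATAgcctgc
Ndufs6, second probe: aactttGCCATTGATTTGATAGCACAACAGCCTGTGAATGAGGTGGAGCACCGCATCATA
Ndufs6, the third probe: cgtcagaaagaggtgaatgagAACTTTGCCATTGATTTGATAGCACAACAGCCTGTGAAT

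Of the 100 member probes, 5 were higher in the double null at a limma adjusted p under 0.05 and none was lower. Over all 25508 probes, 1.2% were called higher and 0.282% lower. The 5 probes belonged to 5 genes, Atp5b, Atp5f1, Atp5a1, Atp5g3 and Atp5h, all of them ATP synthase subunits. At an unadjusted p under 0.05 there were 36 member probes, all of them higher, against 5161 of all probes, of which 3030 were higher. Most ratios were small and positive. The median over the members was 0.08, with 0.06, 0.12 and 0.06 on the 3 arrays, beside 0.01 over all probes. In 78 of the 100 probes the mean ratio was above 0, beside 54.0% of all probes, and 58 were above 0 on every array, 10 below 0 on every array and 32 of mixed sign. The plot of the probes on every array shows the ordering by complex.

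**Figure D1:**
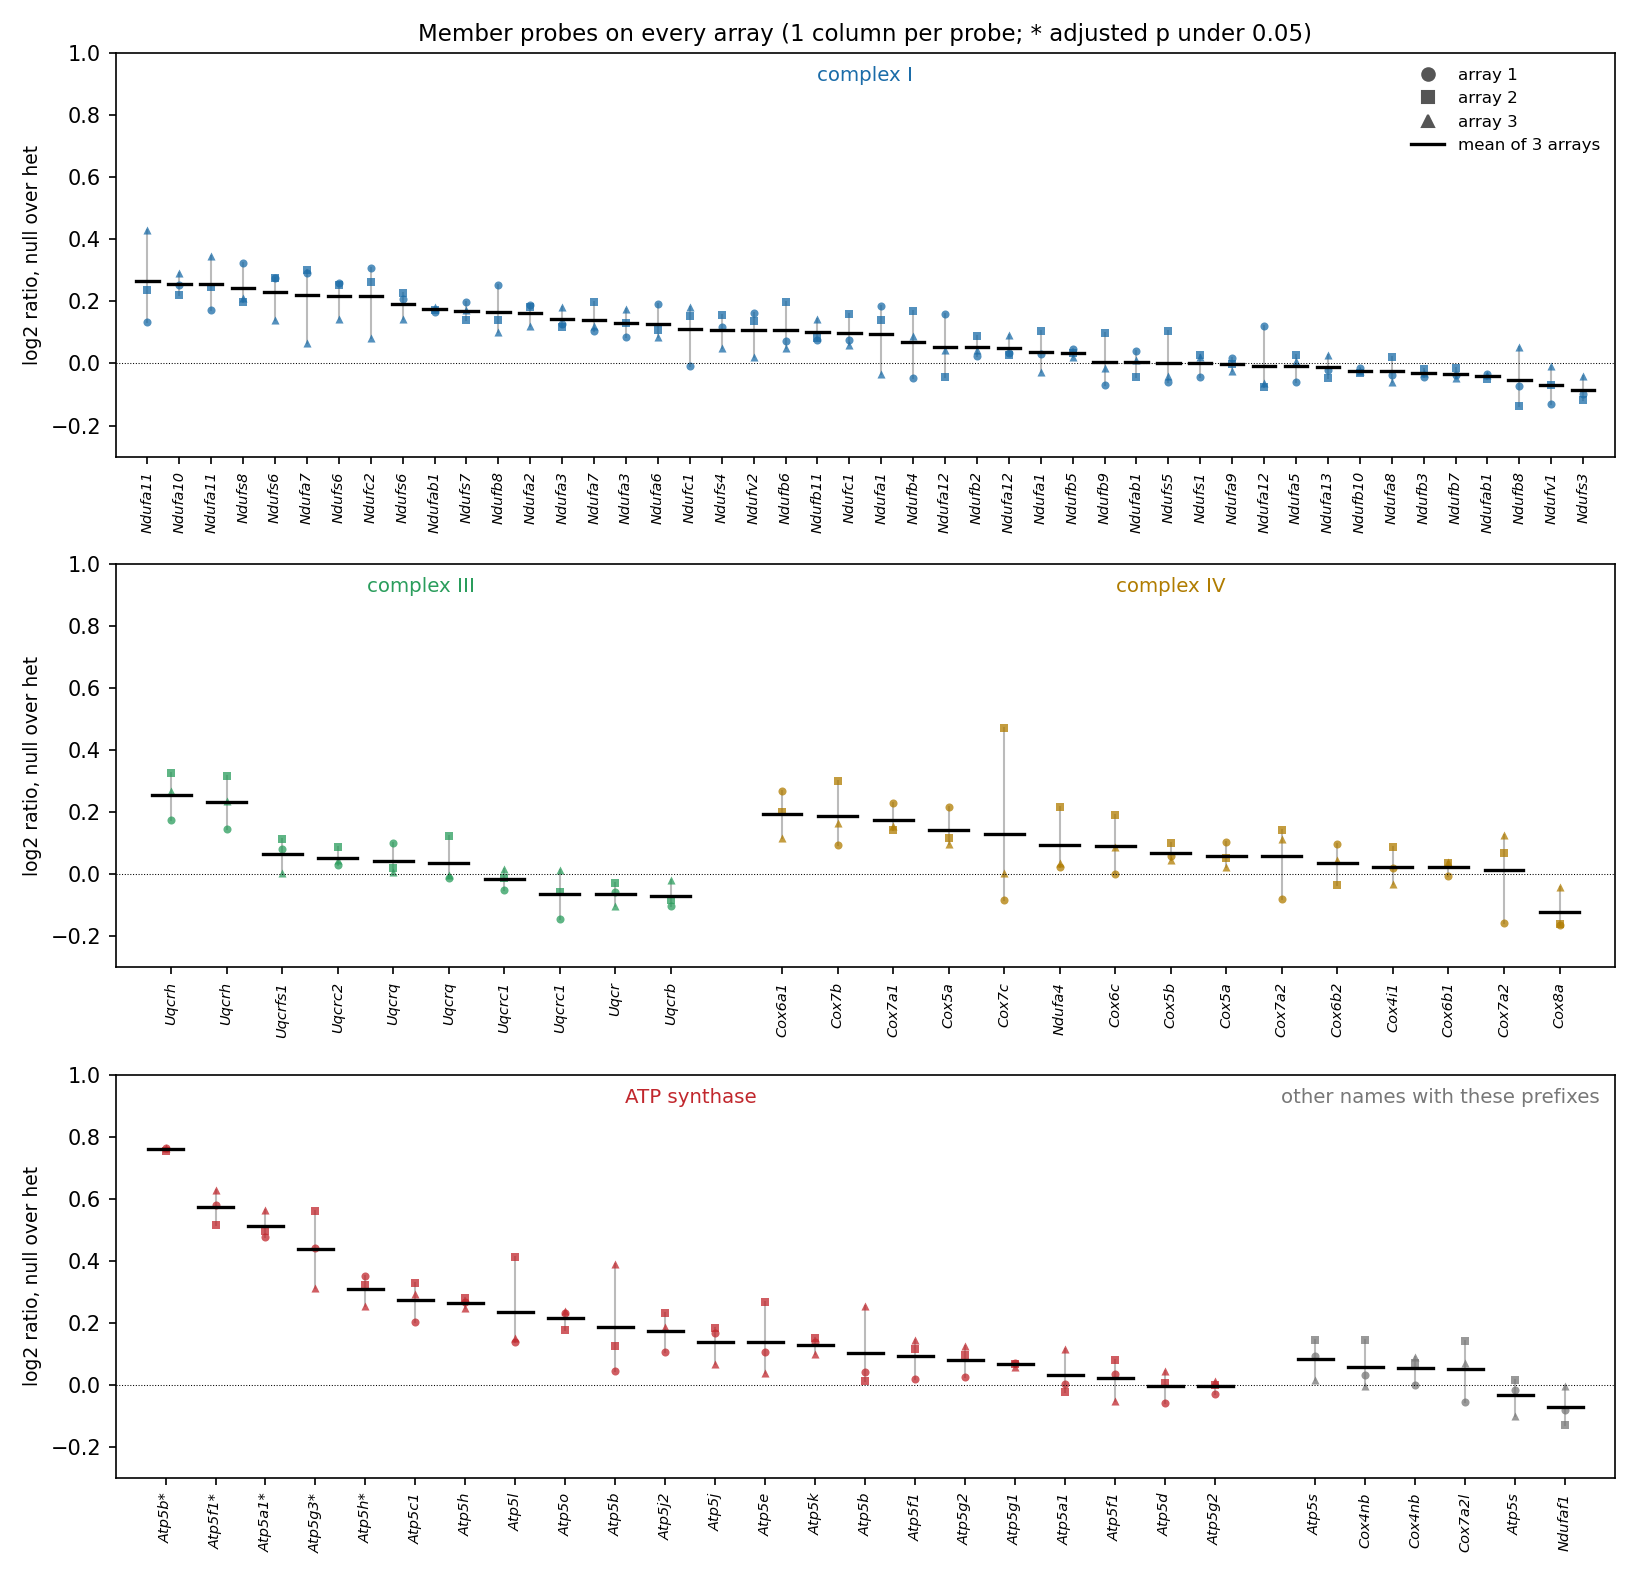
Log2 ratio of the double null over the double heterozygote for 99 of the 100 member probes, 1 column per probe, with a circle, square and triangle for arrays 1, 2 and 3 and a bar for their mean. The ATP synthase panel holds the 5 probes that passed the test and 20 of 22 probes with a mean above 0, and the complex I panel runs from 0.27 for Ndufa11 to -0.09 for Ndufs3.

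The replicate arrays gave similar values. The SD over the 3 arrays had a median of 0.06 for members and 0.09 for all probes. Over the members, array 1 and array 2 correlated with r = 0.77, arrays 1 and 3 with 0.74, and arrays 2 and 3 with 0.73, where the probes are not independent and share arrays and dyes. The standard error ran from 0.048 to 0.107, which gives 95% limma intervals of at least 0.115 on either side of a mean. The interval of each of the 95 probes that did not pass lay within -0.5 and 0.5, and that of 75 lay within -0.3 and 0.3. Their means corresponded to folds from 0.919 to 1.21.

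The ATP synthase had the highest median ratio among the complexes. Its median difference from probes of like brightness was 0.11, as was that of the complex I subunits. Its 22 probes, for 15 genes, had a median ratio of 0.16, with 0.12, 0.18 and 0.17 on the 3 arrays, and 18 were above 0 on every array. In the catalytic head, the third Atp5b probe had ratios of 0.76, 0.75 and 0.76, which left almost no spread between arrays. Its mean of 0.76 ± 0.05 is a fold of 1.69 (limma adjusted p = 0.00302). The background-subtracted signals behind it were 43579, 53442 and 49503 in Cy3 and 287149, 309988 and 279952 in Cy5. The bright probe of Atp5a1, the alpha subunit that alternates with beta in the head, gave 0.48, 0.50 and 0.56, a mean of 0.51 ± 0.05 and a fold of 1.43 (limma adjusted p = 0.00663). Atp5c1, the gamma subunit that turns inside the head, gave 0.20, 0.33 and 0.29 and did not pass (limma adjusted p = 0.0665). Atp5d and Atp5e, the delta and epsilon subunits of the central stalk, had mean ratios of 0.00 and 0.14.

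In the membrane rotor, which is a ring of identical c subunits, 3 genes encode the same mature protein. Atp5g3 gave 0.44, 0.56 and 0.31, a mean of 0.44 ± 0.06 (limma adjusted p = 0.0274). Atp5g1 gave 0.07, 0.07 and 0.06, and the probes of Atp5g2 had means of 0.00 and 0.08. All ratios of Atp5g3 lay above those of the other 2 genes. The Atp5g3 probe was among the brightest of the members, and the differences from the 200 non-member probes of like brightness did not keep that order, at 0.05 for Atp5g3, 0.11 for Atp5g1 and 0.02 and 0.12 for Atp5g2. No test of the difference between genes was made.

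Among the subunits of the outer stalk, the upstream Atp5f1 probe had 0.58, 0.52 and 0.63, a mean of 0.57 ± 0.05 and a fold of 1.49 (limma adjusted p = 0.00489). It was a dim probe, with background-subtracted signals of 43.6, 68.5 and 60.2 in Cy3 and 236.2, 265.9 and 254.7 in Cy5. The other Atp5f1 probes had means of 0.09 ± 0.05 and 0.02 ± 0.05, and their array values lay between -0.05 and 0.15. The first-listed Atp5h probe gave 0.35, 0.32 and 0.25, a mean of 0.31 ± 0.05 and a fold of 1.24 (limma adjusted p = 0.0448). The overlapping Atp5h probe gave 0.27, 0.28 and 0.25, close to it on each array, and missed the threshold (limma adjusted p = 0.0588). Atp5o, which links the stalk to the head, had a mean of 0.22 ± 0.05 (limma adjusted p = 0.0958). Atp5j, coupling factor 6 of the same stalk, had 0.14, and of the small membrane subunits Atp5l had 0.23, Atp5j2 0.17 and Atp5k 0.13, each above 0 on every array.

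The calls differed in how far they depended on single arrays. The Atp5b probe passed whichever array was left out, with limma adjusted p between 0.0031 and 0.0358. Atp5a1 and the upstream Atp5f1 probe lost the call without array 3 (limma adjusted p = 0.0719 and 0.0565). Atp5g3 and Atp5h lost it without any 1 of the arrays, with limma adjusted p between 0.0547 and 0.0911 for Atp5g3 and between 0.117 and 0.155 for Atp5h. The number of member probes called was therefore 3 without array 1, 3 without array 2 and 1 without array 3. Over all probes, too, fewer were called with any array left out than the 379 with all 3 arrays. With the scanner's processed signals, the series table, or loess on probes above background at a span of 0.1, none of the 5 passed. Over all probes, processed signals and the series table gave no call either, and a span of 0.1 gave far fewer than the main 379. With processed signals the ratio was 0.35 for Atp5b, 0.13 for Atp5a1, 0.08 for Atp5g3 and 0.17 for Atp5h, and 0.91 for Atp5f1, with limma adjusted p between 0.207 and 0.538. At a span of 0.1 they were 0.29, 0.11, 0.08, 0.17 and 0.55 in the same order of genes.

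Probe brightness moved with the ratio, so each member was also set against other probes of like brightness. From its ratio on each array, the median ratio of the 200 non-member probes nearest in mean log2 intensity was subtracted, and the differences were tested in the same way. The reason is visible in the band of other probes. Those with a mean log2 intensity of 16 or more had a median ratio of 0.46 and 68.8% of them were called, while those between 13 and 14 had a median of -0.04 and 1.09% were called. Member probes are bright: 47 of the 100 fell in the brightest 5% of probes, and 4 of the 5 called probes were among them.

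**Figure D2:**
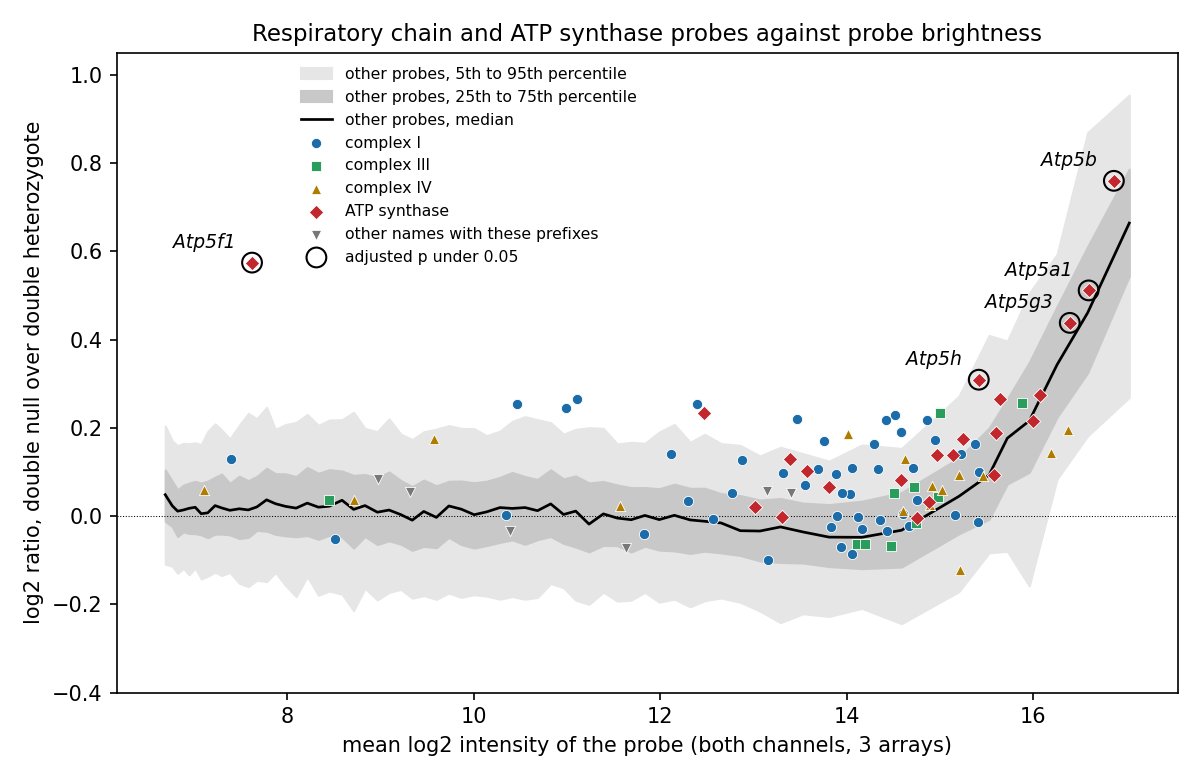
Log2 ratio against mean log2 intensity for the member probes, coloured by complex, over a band of the other probes (median line, 25th to 75th and 5th to 95th percentiles). The circled bright probes of Atp5a1 and Atp5g3 lie near the median of the other probes, Atp5b and Atp5h lie above it, and the circled Atp5f1 probe lies far above the band at an intensity of 7.62.

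After the subtraction 1 member probe was called higher, the upstream Atp5f1 probe, and none lower, against 0.0745% and 0.00392% of all probes. At an unadjusted p under 0.05 there were 33 of the 100 members, 30 higher and 3 lower. Of all 25508 probes there were 4801, 2441 higher and 2360 lower. The Atp5f1 difference was 0.56, 0.49 and 0.62 on the arrays, a mean of 0.56 ± 0.05 (limma adjusted p = 0.0482). For the third Atp5b probe the difference was 0.24 ± 0.05, where the ratio was 0.76 (limma adjusted p = 0.118), and for Atp5h it was 0.24 ± 0.05, where the ratio was 0.31 (limma adjusted p = 0.125). For Atp5a1 and Atp5g3 it was 0.06 and 0.05, close to the standard errors of 0.05 and 0.06. With any array left out, the Atp5f1 probe too missed the threshold, at limma adjusted p between 0.0904 and 0.172.

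The small positive shift over the whole list did not shrink in the same way. The median difference from probes of like brightness was 0.07 over the 100 members, with 0.06, 0.11 and 0.06 on the arrays, beside 0.00 over all probes. A difference above 0 was found in 82 member probes, beside 49.9% of all probes, and 51 were above 0 on every array while 6 were below 0 on every array. Without the 5 called probes the median difference was 0.07 over 95 probes. Within bands of intensity, the members' median ratio was 0.06 against 0.02 for other probes below 10, with 9 member probes. Between 10 and 12 it was 0.014 against 0.007, and 4 of 8 member probes lay above the others' median. It was 0.13 against -0.01 between 12 and 13 and 0.06 against -0.04 between 13 and 14. Between 14 and 15 it was 0.05 against -0.03, and between 15 and 16 it was 0.14 against 0.09. At 16 and above the order of the medians was turned, at 0.36 for 6 member probes against 0.46. This band has no upper limit, and members reached a mean log2 intensity of 16.9 where other probes reached 17.9. Set against probes of like brightness, these 6 had a median difference of 0.04, with -0.16 for the bright Cox5a probe and -0.18 for Cox6a1. The narrowest single-probe interval reached 0.115 on either side, but it belongs to 1 probe's ratio and does not measure the spread of a median over members. The members' median differences on the 3 arrays had an SD of 0.027. Between 12 and 13 the median difference of 7 member probes was 0.15. The list was not tested as a whole.

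**Figure D3:**
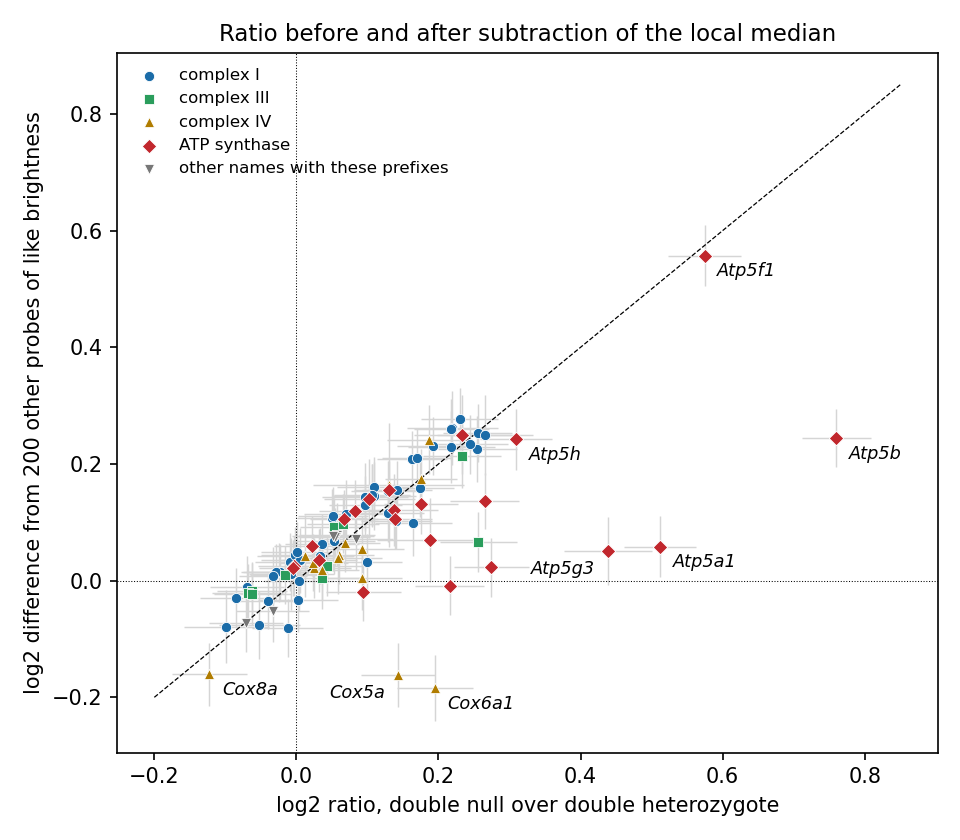
Log2 ratio of each member probe (x axis) against its log2 difference from 200 other probes of like brightness (y axis), with standard errors over 3 arrays and a dashed line where both are equal. Atp5f1 stays near the line, the bright ATP synthase probes fall below it, and Cox5a, Cox6a1 and Cox8a lie lowest.

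None of the 47 probes of complex I subunits passed the limma test in either direction, and 17 were higher at an unadjusted p under 0.05. The 40 probes of its 28 accessory genes had a median ratio of 0.10, and 30 were above 0. Their median difference from probes of like brightness was 0.11, 35 of the 40 were above 0 and 26 were above 0 on every array. The highest was Ndufa11, an accessory membrane subunit, with 0.13, 0.24 and 0.43 on the brighter probe and 0.17, 0.25 and 0.35 on another that shares 50 bases with it. Ndufa10, a subunit of the membrane arm, gave 0.25, 0.22 and 0.29 (limma adjusted p = 0.0684), with no array value below 0.22. The 3 overlapping Ndufs6 probes had means of 0.23 ± 0.05, 0.19 ± 0.05 and 0.22 ± 0.05, with limma adjusted p of 0.101, 0.121 and 0.105. Ndufc2 gave 0.31, 0.26 and 0.08, and the dimmer Ndufa7 probe gave 0.29, 0.30 and 0.07, so that array 3 was lowest for both.

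At the other end, several accessory genes had means within 0.04 of 0, among them Ndufb10 at -0.02, Ndufb7 at -0.03, Ndufb3 at -0.03 and Ndufa9, which sits near the quinone site, at 0.00. Ndufa13, known also as the cell death regulator Grim19, had -0.01, and its difference from probes of like brightness was -0.08 ± 0.05. Ndufab1, the mitochondrial acyl carrier protein, had 0.17, 0.17 and 0.18 on its brightest probe, but -0.04 and 0.00 on 2 other probes. Its probes thus differed by more than the spread between arrays on either.

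The 7 core genes of complex I divided. Ndufs8 and Ndufs7, which carry iron-sulfur clusters near the quinone site, gave 0.32, 0.20 and 0.21 (limma adjusted p = 0.0872) and 0.20, 0.14 and 0.17 (limma adjusted p = 0.141). Ndufv2, of the NADH-oxidizing module, had a mean of 0.11, and Ndufs1, the largest iron-sulfur subunit, had 0.00. Ndufv1, which binds NADH, had -0.13, -0.07 and -0.01, and Ndufs3 had -0.10, -0.12 and -0.04. The median of the 7 was 0.00, and their median difference from probes of like brightness was 0.05. Ndufaf1, whose product helps to assemble complex I and is not part of it, had -0.08, -0.13 and 0.00, a mean of -0.07 ± 0.05 (limma adjusted p = 0.482).

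In complex III, none of 10 probes for 7 genes passed the limma test (2 at an unadjusted p under 0.05, both of Uqcrh), and the median ratio was 0.04. The median difference of these probes from probes of like brightness was 0.02. Only Uqcrh, the hinge protein next to cytochrome c1, stood away from 0, with 0.17, 0.33 and 0.27 on 1 probe and 0.15, 0.32 and 0.24 on another (limma adjusted p = 0.0818 and 0.102). Both probes had the same order of arrays, and the differences from probes of like brightness were 0.07 and 0.21. The core proteins Uqcrc1 and Uqcrc2 had means of -0.02 and -0.06 on the probes of the former and 0.05 for the latter. Uqcrfs1, the Rieske iron-sulfur protein, had 0.07, Uqcrb had -0.07, and Uqcr, now Uqcr11 in RefSeq, had -0.06.

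In complex IV, none of 15 probes for 13 genes passed the limma test (4 at an unadjusted p under 0.05, all higher). The mean was above 0 in 14 of them, the median ratio was 0.07, and the median difference from probes of like brightness was 0.04. Cox6a1 had 0.27, 0.20 and 0.12 and Cox5a had 0.22, 0.12 and 0.10 on its bright probe. Both are among the bright probes whose neighbours in intensity were higher still, and their differences were -0.18 ± 0.06 and -0.16 ± 0.05 (limma adjusted p = 0.183 and 0.206). Cox8a, the small subunit in its general form, was the lowest member, with -0.16, -0.16 and -0.04, a mean of -0.12 ± 0.05 (limma adjusted p = 0.259) and a difference of -0.16 ± 0.05. Cox7c gave -0.08, 0.47 and 0.00, the widest spread among the members, so that its mean of 0.13 rests on array 2. Cox4i1, Cox5b and Cox6c had means of 0.02, 0.07 and 0.09, and Ndufa4, first described in complex I and now counted with complex IV, had 0.09.

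The general and tissue-restricted forms of complex IV subunits were compared by detection, since levels of different probes are not comparable. For subunit 4, Cox4i1 was measured and Cox4i2, the form known from lung, was not well above background in either channel on any array. For subunit 6a, Cox6a1 was measured, and the heart and muscle form Cox6a2 was above background on 1 array in each channel. For subunit 8, Cox8a was measured, and neither the muscle form Cox8b nor Cox8c was above background on any array. Cox6b1 and the testis form Cox6b2 were both measured, at 0.02 and 0.04. The exception among muscle forms was Cox7a1, which was above background on all arrays with 0.23, 0.14 and 0.16, a mean of 0.18 ± 0.05 (limma adjusted p = 0.14). Its general counterpart Cox7a2 had means of 0.06 and 0.01 on 2 probes, with array 1 below 0 on both.

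Some markers of other cell types also differed between the groups, and the values of these lists stand beside those of the members. Of 7 heart genes on the array, 6 passed the filter on 8 probes, Myl2 did not, and 3 probes for Tnni1 and Myl4 were called higher. The list's median ratio was 0.13, 0.48 and 0.88 on arrays 1, 2 and 3. Its summed intensity was 2070 to 2680 in the double heterozygote and 3050 to 3930 in the double null. This sum, and that of the endothelial markers below, again restates the ratios at the mean brightness of each probe. Blood markers had medians of 1.43, -0.42 and 2.69 with none of 3 probes called by limma (2 at an unadjusted p under 0.05), and Hbb-y, Gata1 and Alas2 did not pass the filter. Endothelial markers had medians of 1.16, 0.26 and 0.14 and a summed intensity of 816 to 1240 in the double heterozygote and 1160 to 1770 in the double null, with none of 3 probes called by limma (2 at an unadjusted p under 0.05), and Pecam1 did not pass the filter. Medians on the 3 arrays were -0.41, 0.04 and -0.14 for surface ectoderm markers and -0.27, 0.01 and -0.39 for neural crest markers, again without a limma call (2 of 5 and 1 of 4 probes at an unadjusted p under 0.05). Hindbrain and neural markers had -0.11, -0.08 and -0.23 without a limma call (2 of 6 lower at an unadjusted p under 0.05). Head mesoderm markers had 0.04, 0.00 and -0.09 without a limma call (of 5, 2 higher and 1 lower at an unadjusted p under 0.05). Of 4 endoderm probes, 1 of Sox17 was called lower, at -0.53, and the other Sox17 probe had -0.36. Afp went the other way, at 0.25, Foxa2 had 0.17, -0.25 and -0.20, and Ttr did not pass the filter. Of the 4 probes, 1 was higher and 2 were lower at an unadjusted p under 0.05. The part of such cells in the members' values was not tested.

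Of the gene names with these prefixes, Cox4nb, Cox7a2l and Atp5s encode no subunit, and their 5 probes gave no limma call, also at an unadjusted p under 0.05, and a median of 0.05. Cox4nb, a neighbour of Cox4i1 that RefSeq now names Emc8, had 0.06 and 0.05. Cox7a2l, a relative of Cox7a2 that acts in joining complexes III and IV, had -0.06, 0.14 and 0.07. Atp5s, RefSeq's Dmac2l, had -0.03 and 0.08 on 2 probes.

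For 21 genes more than 1 probe was measured, 16 with 2 and 5 with 3, and the median gap between the highest and the lowest probe of a gene was 0.06. The gap reached 0.5 in 2 genes, Atp5b at 0.66 and Atp5f1 at 0.55, followed by Atp5a1 at 0.48. After subtraction of the median of probes of like brightness, the gap was 0.17 for Atp5b, 0.02 for Atp5a1 and 0.58 for Atp5f1. In Atp5b and Atp5a1 the probe with the highest ratio was the brightest, at mean log2 intensities of 16.9 and 16.6, whereas in Atp5f1 it was the dimmest, at 7.62. The second Atp5b probe gave 0.05, 0.13 and 0.39 and the first gave 0.04, 0.01 and 0.26, so that array 3 was highest for both, and neither passed (limma adjusted p = 0.231 and 0.409). Of the 5 called genes, Atp5b, Atp5f1 and Atp5a1 thus had other probes with ratios of 0.19 or less, Atp5h had a second probe close to the first, and Atp5g3 had 1 probe.

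**Figure D4:**
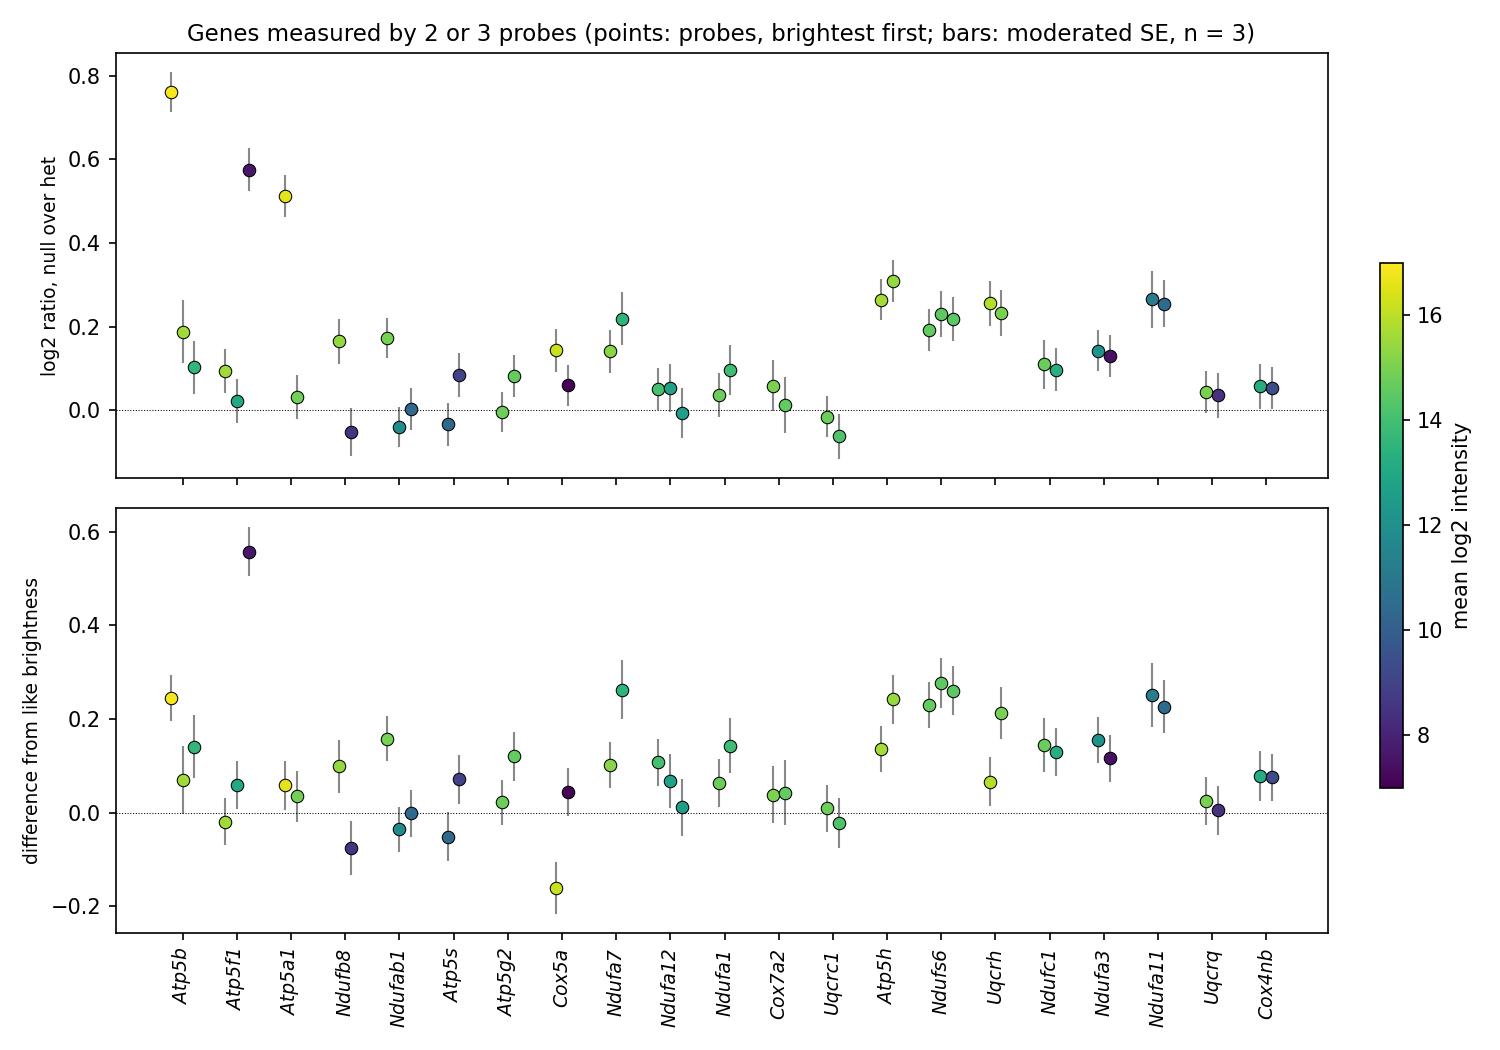
Log2 ratio (upper panel) and log2 difference from probes of like brightness (lower panel) of each probe of the 21 genes measured more than once, with moderated standard errors over 3 arrays and colour for mean log2 intensity. The gaps of Atp5b and Atp5a1 close in the lower panel to 0.17 and 0.02, and that of Atp5f1 remains at 0.58.

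The member genes lie on 19 chromosomes, and 3 of those measured are X-linked. Cox7b, at chrX:101349174-101349233, had 0.09, 0.30 and 0.17, Ndufb11 had 0.07, 0.08 and 0.14, and the probes of Ndufa1 had means of 0.04 and 0.10. Genes that mark sex differed between the channels by array. The brightest Xist probe, for the RNA of the inactive X chromosome of females, had 0.86, -1.26 and 0.22, and Eif2s3y, a gene of the Y chromosome, had -0.65, 1.97 and -0.31. The X-linked members stayed between -0.03 and 0.30 on all arrays. Over the members, the ratio did not order with the GC content of the probe (Spearman rho = 0.00) and weakly with brightness (rho = 0.25), both given as descriptions over 100 probes that share arrays and dyes.

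Other mitochondrial genes, listed by function, gave 1 call in all. Complex II, which feeds electrons from succinate, had 0 of 5 probes called by limma, 0 also at an unadjusted p under 0.05, and a median of 0.06, and its brightest gene, Sdhd, had 0.05, -0.03 and -0.12. Cytochrome c, the carrier between complexes III and IV, was low on 3 Cycs probes, at -0.05, -0.16 and -0.08, without a limma call (1 at an unadjusted p under 0.05), and Cyc1, the cytochrome c1 of complex III, had 0.13. Assembly factors had 0 of 31 probes called by limma, 3 at an unadjusted p under 0.05, and a median of 0.01. Their brightest probe, for the copper chaperone Cox17, gave -0.29, -0.04 and 0.17 and differed by -0.56 from probes of like brightness (limma adjusted p = 0.087), while a second Cox17 probe had a difference of 0.12. Atpif1, which encodes an inhibitor of the ATP synthase, had 0.18, 0.28 and 0.23 on its bright probe (limma adjusted p = 0.0915).

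Enzymes of the citric acid cycle and pyruvate dehydrogenase had 0 of 27 probes called by limma, 8 at an unadjusted p under 0.05, and a median of 0.03, and their brightest gene was Mdh2 at 0.16, with Cs, citrate synthase, at 0.10 and -0.25 on 2 probes. Regulators of mitochondrial genes had 0 of 26 called by limma, 4 at an unadjusted p under 0.05, and a median of -0.02. Tfam, which packages mitochondrial DNA, had -0.09, -0.12 and 0.04 on 3 probes, and Pprc1, a coactivator, had -0.05. Of 15 probes for carriers and pores 1 was called, for the ADP/ATP carrier Slc25a5, with 0.47, 0.42 and 0.30 (limma adjusted p = 0.026), and its difference from probes of like brightness was 0.13.

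Among other bright gene families, the glycolytic enzymes had 9 of 28 probes called higher and a median ratio of 0.17, and cytosolic ribosomal protein genes had 67 of 150 called higher and a median of 0.28. Their median differences from probes of like brightness were 0.05 and 0.10, beside 0.07 for the members. These are unlike measures, since all members were left out of the probes they were set against. Other probes of the glycolytic and ribosomal families stayed among theirs. At a mean log2 intensity of 16 or more, 71 of the 272 other probes were ribosomal, with a median ratio of 0.64. After the subtraction, 0 glycolytic probes (10 at an unadjusted p under 0.05) and 1 ribosomal protein probe were called. The 3 families share arrays and dyes, and no test of a difference between them was made.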

How the data were processed

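Agilent 2-colour arrays compared 3 pools per genotype, on positions of 1 slide. Per the submitters' processing notes, spot values came from Agilent Feature Extraction 9.5.1.1. The authors' deposited scanner files hold unnormalized mean and background intensity per channel, processed intensity and a log10 ratio of Cy5 over Cy3, and the deposited series table holds log2 ratios equal to that log10 ratio within 2.01e-06. The column medians of that table were -0.012, -0.0082 and -0.0031.

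From the mean intensities, background was corrected with normexp (offset 50), ratios were normalized by loess (span 0.3, control spots at weight 0), spots with an outlier mark (143 to 175 per array) were left out, and spots of a probe were averaged. At most 1 spot per array was saturated. The test of a mean ratio against 0 used lmFit and eBayes of limma 3.58.1 (R 4.3.3), with Benjamini-Hochberg adjustment over 25508 probes, and 6.53 total degrees of freedom stood behind each interval for a probe measured on 3 arrays. The script was tested on simulated data. The pools are labelled as biological replicates, and with 3 arrays the precision is limited by their number.

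Names are those of the array. Of the 107 member probes, 94 matched a RefSeq record by accession, 88 under the same symbol, and 13 did not. Promoter sequences were not used. A few genes that met the naming rule are not reported here, though the counts and medians include them. The members, lists and tests were chosen with earlier results of these data known. Genes named are, by role, called probes (up to 5), the 2 brightest, the highest and the lowest, isoform families, X-linked genes, genes whose probes differ by 0.5 or more, and, of other lists, up to 3 called or the 2 brightest. Other members are given as values to complete a complex, and Cox7c, Ndufab1, Cox17, Cs and Atpif1 were singled out after their values were seen.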

Additional observations from a re-analysis of the deposited data

How the results depend on the processing

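The median difference of the members from probes of like brightness stayed between 0.05 and 0.08 under all alternatives run. The counts of calls did not stay. Member probes past the threshold numbered 5, and 3 with a normexp offset of 16, 0 with the scanner's processed signals, 0 with the series table, 3 and 0 with loess on probes above background at spans of 0.3 and 0.1, 3 with an intensity trend, and 1 to 3 with an array left out. Each array pairs 1 pool of each genotype, and a separate-channel fit with no replicate block called 3. Over all probes these settings called 199, 0, 0, 233, 11, 179, 82 to 309 and 190, beside 379, and all 11 at span 0.1 were higher. Median centring without loess raised the median of all probes to 0.33 and called 97 members and 19485 probes, 17193 of them higher. After subtraction of the local median, 1 member was called, and 0 with offset 16, no background subtraction, processed signals, the series table, median centring, both loess spans above background, an intensity trend, separate channels with no replicate block, or any array left out (0 to 0). The 0 with 1 probe per gene follows from the rule, since a brighter Atp5f1 probe replaced the called one. With the 800 nearest probes 3 were called (Atp5a1, Atp5b and Atp5f1). Over all probes these fits called 0 to 23, and 217 with the 800 nearest, beside 20; with no filter on dim probes they called 56. The members' median ratio of 0.08 was 0.036 with processed signals or the series table, 0.73 with median centring and 0.048 at span 0.1. Under median centring 8 named probes with ratios below 0 turned to calls above 0: Atp5g2 0.73, Ndufa13 0.80, Ndufaf1 0.39, Ndufs3 0.57, Ndufv1 0.58, Uqcrb 0.64, Cox8a 0.66 and Atp5s 0.36. With processed signals Cox5a and Cox6a1 had ratios of -0.14 and -0.12. Arrays have no depth, and their number limits the precision. After the subtraction the Atp5f1 probe had limma adjusted p between 0.0122 and 0.259 over the alternatives.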

Other observations

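Genes for mitochondrial ribosomal proteins, which build the ribosomes that translate the mitochondrially encoded subunits, gave 0 limma calls among 121 probes for 75 genes, and 17 at an unadjusted p under 0.05, 13 of them higher. Their median ratio was 0.04, with 0.02, 0.05 and 0.00 on the 3 arrays, and their median difference from probes of like brightness was 0.04. A difference above 0 was found in 66.9% of these probes, beside 82% of the respiratory chain and ATP synthase probes and 49.9% of all probes. The mitochondrial ribosomal probes stayed among the probes of like brightness, from which members were left out, so these differences are unlike measures. The lists were not tested against each other.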
